A study of Mus musculus with 3 samples.

Results

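The snoRNA host genes are long non-coding genes whose introns carry small nucleolar RNAs (snoRNAs), and 10 of them were listed by symbol: Gas5, Snhg1, Snhg3, Snhg4, Snhg5, Snhg6, Snhg7, Snhg8, Snhg12 and Snhg15. The gene identifiers of 8 of these symbols were taken from the deposited tables, out of 55536 annotated genes. No identifier was found under the symbols Snhg4 and Snhg7, which were not analysed here. Macrophages grown from the bone marrow of C57BL/6J mice were given 100 ng/ml Lipid A, the TLR4-binding portion of bacterial lipopolysaccharide, for 10 min. Total RNA of their chromatin fraction, where unfinished and unspliced transcripts are enriched, was sequenced after removal of ribosomal RNA. There was 1 group of 3 libraries, and no unstimulated library was used here, so no value below is a response to Lipid A. The labels give no sex or age, and the 3 biological replicates carry 1 shared donor entry, so their spread may be partly technical. Starting RNA was 1 µg, 250 ng and 500 ng for replicates 1, 2 and 3, so the amount and the replicate cannot be told apart.

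In a host gene the spliced exons and the snoRNA come from the same primary transcript. The snoRNA is usually cut out of an excised intron that has been opened and trimmed at both ends, and the exons are joined to a spliced RNA that in several hosts carries a terminal oligopyrimidine start and is degraded by nonsense-mediated decay. Box C/D snoRNAs guide ribose methylation of ribosomal RNA, box H/ACA snoRNAs guide its pseudouridylation, and a few of both kinds act in cleavage of the ribosomal RNA precursor. A macrophage, like other cells, makes these RNAs alongside its ribosomes.

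Within the 8 host genes, on the same strand, the GENCODE M21 annotation places 30 small RNA identifiers of the snoRNA and scaRNA types. Gas5 holds 10 of them, Snhg1 holds 8, Snhg12 holds 5, Snhg3 and Snhg5 hold 2 each, and Snhg6, Snhg8 and Snhg15 hold 1 each. They are 60 to 205 bases long, and 2 pairs of identifiers overlap each other, so each of those pairs marks 1 site. The sequences below are hosted RNAs that received the most reads at their locus, with Snora24 as the only one of Snhg8, as GENCODE M21 transcripts (mm10), 5′ to 3′. Capitals mark TGATGA found within the first 20 bases together with CTGA within the last 16 (box C and box D letters), or ACA placed 3 bases before the end (the box ACA letters). Only the strand of the RNA was searched, and the 2 searches can both match 1 RNA. An RNA printed without capitals holds neither pattern in those windows.
Snord22, in Snhg1, chr19:8725866-8725991, plus strand: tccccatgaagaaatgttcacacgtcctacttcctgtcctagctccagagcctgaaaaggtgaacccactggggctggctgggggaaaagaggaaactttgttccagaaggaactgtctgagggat
Snora73a, in Snhg3, chr4:132352775-132352979, minus strand: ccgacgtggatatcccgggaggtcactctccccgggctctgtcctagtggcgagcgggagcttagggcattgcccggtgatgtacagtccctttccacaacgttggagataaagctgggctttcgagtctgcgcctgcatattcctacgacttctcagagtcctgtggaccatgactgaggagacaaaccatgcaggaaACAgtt
Snora73b, in Snhg3, chr4:132352322-132352526, minus strand: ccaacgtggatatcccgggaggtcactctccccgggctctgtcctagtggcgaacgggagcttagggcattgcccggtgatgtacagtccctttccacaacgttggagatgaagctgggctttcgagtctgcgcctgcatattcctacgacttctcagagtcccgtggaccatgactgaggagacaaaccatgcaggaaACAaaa
Gm22357, in Gas5, chr1:161036057-161036139, plus strand: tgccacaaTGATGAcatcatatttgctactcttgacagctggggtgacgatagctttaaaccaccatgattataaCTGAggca
Snord47, in Gas5, chr1:161038082-161038158, plus strand: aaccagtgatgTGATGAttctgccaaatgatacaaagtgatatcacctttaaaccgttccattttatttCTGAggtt
Snora61, in Snhg12, chr4:132310240-132310369, plus strand: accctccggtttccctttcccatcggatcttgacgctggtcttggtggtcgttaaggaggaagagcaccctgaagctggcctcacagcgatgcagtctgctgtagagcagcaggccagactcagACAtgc
Snord99, in Snhg12, chr4:132310691-132310764, plus strand: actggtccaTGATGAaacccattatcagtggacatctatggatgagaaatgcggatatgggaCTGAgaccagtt
Snora24, in Snhg8, chr3:123507937-123508066, minus strand: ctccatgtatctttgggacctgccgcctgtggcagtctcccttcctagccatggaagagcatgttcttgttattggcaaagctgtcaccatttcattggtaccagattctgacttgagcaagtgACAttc
Snora9, in Snhg15, chr11:6528033-6528165, minus strand: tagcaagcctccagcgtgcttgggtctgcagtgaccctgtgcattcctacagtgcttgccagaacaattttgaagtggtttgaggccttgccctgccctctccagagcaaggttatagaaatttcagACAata
Snord50a, in Snhg5, chr9:88521529-88521600, minus strand: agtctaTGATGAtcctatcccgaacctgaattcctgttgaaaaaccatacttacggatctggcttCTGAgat
Snord87, in Snhg6, chr1:9942463-9942549, minus strand: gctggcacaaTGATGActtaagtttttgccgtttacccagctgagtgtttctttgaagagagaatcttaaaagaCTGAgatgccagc
Both box C and box D letters were found in 17 of the 30 hosted RNAs, against 20.0% of all 1558 annotated snoRNA and scaRNA genes. The ACA letters were found in 8 of the 30, against 19.3% of all 1558. Snora73a and Snora73b, which belong to the U17 family that acts in cleavage of the ribosomal RNA precursor, were identical at 198 of 205 bases (96.6%) when laid side by side without gaps.

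All 8 host genes were present in the chromatin fraction. Each had a TPM (a transcript level corrected for length and library size) of 1 or more in all 3 libraries, against 24.4% of all annotated genes and 13.5% of the 10155 long non-coding genes. Their median level on the log2(TPM + 1) scale was 4.20 ± 0.35 (SD, n = 3), against 2.33 ± 0.18 for the 1375 long non-coding genes that passed the same threshold and 3.65 ± 0.25 for the 10120 protein coding genes that passed it. These medians describe the lists and were not tested.

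Gas5, found as a transcript that accumulates in growth-arrested mouse fibroblasts, was the highest (chr1:161034422-161038539, plus strand). It had 132, 145 and 118 TPM in replicates 1, 2 and 3, a mean of 132 ± 13.5 TPM (SD, n = 3), and ranked 12th among the long non-coding genes. Snhg1, the host of the U22 gene and several other box C/D snoRNAs (chr19:8723475-8726443, plus strand), followed with 37.6, 34.5 and 28.6 TPM. Gas5 lay above Snhg1 by 1.98 ± 0.15 on the log2 TPM scale, with the same sign in 3 of 3 libraries.

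Snhg15, the host of Snora9 (chr11:6525591-6528760, minus strand), had 29.5, 19.6 and 18.5 TPM. It lay below Snhg1 in 3 of 3 libraries of the gene table, by more than 2 SDs of the difference. That order did not hold in the second transcript table, where Snhg15 averaged 28.2 TPM and Snhg1 averaged 25.5 TPM. There Snhg15 was the higher in replicates 1 and 3 and the lower in replicate 2. Snhg8, the host of Snora24 (chr3:123507552-123508404, minus strand), had 26.9, 21.1 and 13.6 TPM. Snhg15 and Snhg8 did not differ beyond their spread, since Snhg8 was the higher of the pair in replicate 2 and the lower in replicates 1 and 3. Snhg12, which holds both box H/ACA and box C/D snoRNAs (chr4:132308623-132311024, plus strand), had 19.3, 13.9 and 11.5 TPM and lay below Snhg8 in every library.

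Snhg5, the host of the pair Snord50a and Snord50b (chr9:88521050-88522929, minus strand), had 14.0, 12.3 and 14.1 TPM. Snhg6, the host of Snord87 (chr1:9941959-9944118, minus strand), had 10.2, 7.61 and 4.83 TPM. Snhg12 and Snhg5 differed by 0.12 ± 0.38 on the log2 TPM scale, with mixed signs. Snhg5 lay above Snhg6 in 3 of 3 libraries, by 0.90 ± 0.57, which is less than the 2 SDs used here to call neighbours apart. Snhg3 was the lowest (chr4:132348014-132353686, minus strand), with 5.69, 2.95 and 1.85 TPM, and it lay below Snhg6 in 3 of 3 libraries. Its level rests on 28.4, 13.1 and 9.27 estimated counts, so counting error alone is large for it, whereas Gas5 had 1658, 2297 and 1747.

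The TPM scale moved with the short RNAs listed beside the genes. When genes under 200 bases were left out of the denominator, Gas5 averaged 239 TPM and Snhg3 averaged 5.85 TPM, and the median over the host genes was 4.998 on the log2(TPM + 1) scale. Levels therefore hold relative to the other genes of the same table. Gas5 overlaps Zbtb37 and Snhg6 overlaps Mcmdc2 on the opposite strand, and Snhg3 overlaps Rcc1 on the same strand and Gm17300 on the opposite strand. Sources used here do not say whether counting used strand, so reads of these overlaps may not have been told apart.

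**Figure D1:**
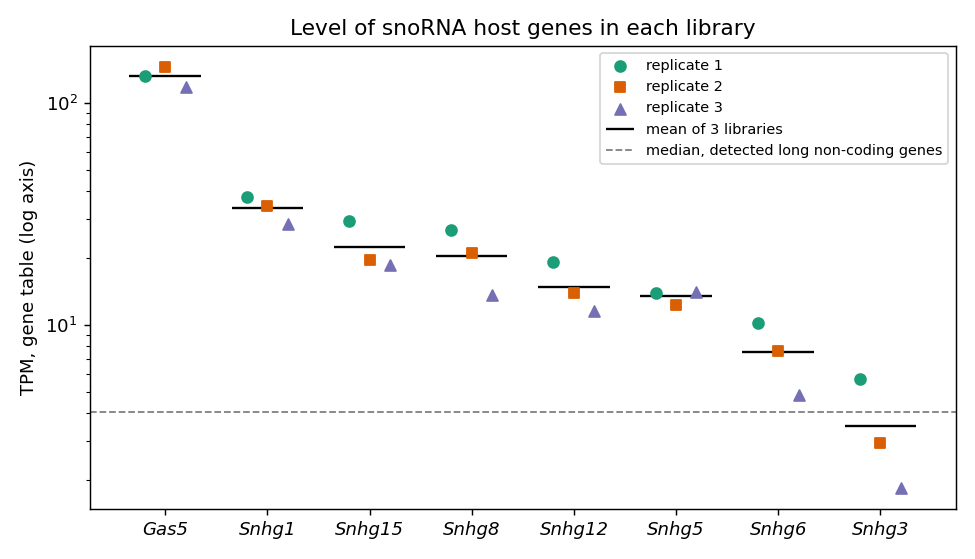
TPM of each host gene in the gene table (vertical log axis), with 1 point per library, the mean of 3 libraries as a bar and the median of the detected long non-coding genes as a dashed line. Gas5 sits between 118 and 145 TPM and the other host genes at or below 37.6 TPM, and Snhg3 is the one host gene whose mean, 3.50 TPM, falls under the dashed line at 4.07 TPM.

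Most of the host gene signal that could be split by transcript type sat in transcripts annotated as retained intron, which keep an intron that other transcripts of the gene remove. Such transcripts are annotated for 4 of the 8 host genes, 20 of 25 for Gas5, 14 of 18 for Snhg1, 3 of 6 for Snhg5 and 1 of 3 for Snhg8. They held 83.8%, 89.8% and 90.3% of the TPM of Gas5 in replicates 1, 2 and 3. They held 91.2%, 87.6% and 81.6% of the TPM of Snhg1. In Snhg8 the share was 80.2%, 75.3% and 77.4%, and in Snhg5 it was 73.9%, 74.2% and 70.1%. Every share in every library was above the median of 46.4% over the 6751 genes tested. The shares were also above the median of 51.6% over the 98 long non-coding genes among them. They were not corrected for the number of annotated transcripts of each type.

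Within each library the TPM of retained intron transcripts was set against that of the other transcripts of the same gene. In limma the log2 ratio was 2.90 for Gas5 (SE 0.20, adjusted p = 3.58e-05) and 2.75 for Snhg1 (SE 0.24, adjusted p = 9.12e-05). In limma it was 1.78 for Snhg8 (SE 0.19, adjusted p = 0.000209) and 1.39 for Snhg5 (SE 0.21, adjusted p = 0.000942). All 4 were called higher, against 25.7% of the genes tested and 32.7% of the 98 long non-coding genes among them, and none was called lower, against 36.3%, while the median ratio over all genes tested was -0.21. Ratios at or above that of Gas5 were found in 2.34% of the genes tested, at or above that of Snhg1 in 2.70%, at or above that of Snhg8 in 7.70% and at or above that of Snhg5 in 12.1%. In the second transcript table the ratio was 1.73 for Snhg1 and 0.90 for Snhg8, and both were still called higher. The p-values measure the spread between the 3 libraries only, and reads that several transcripts share were divided between them by estimate. Reads from a finished snoRNA cannot be told apart here from reads of a retained intron transcript that holds it.

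Single transcripts with embedded snoRNAs led Gas5, Snhg1 and Snhg8. The highest Gas5 transcript, Gas5-218, has 4 exons over 2556 bases and holds 6 hosted identifiers inside its exons. It had 20.98, 25.5 and 20.2 TPM, which was 16.9 ± 0.84% of the TPM of Gas5 and 44.8 ± 2.25% of its estimated counts (SD, n = 3). The next, Gas5-222, is 1614 bases long, holds 3 of the hosted identifiers and had 17.8, 19.8 and 11.8 TPM. For Snhg1 the highest was Snhg1-215, with 2 exons over 2728 bases and 7 of the 8 hosted identifiers inside them, and it took 30.5 ± 2.97% of the TPM and 56.9 ± 3.60% of the counts of Snhg1. Snhg8-202, a single exon of 776 bases that includes Snora24, took 77.6 ± 2.44% of the TPM and 89.0 ± 1.27% of the counts of Snhg8. In these 3 genes the longest annotated transcript, with snoRNAs still embedded, took the largest share of the gene's counts. Snhg5 was more evenly divided, with Snhg5-204, which holds 1 hosted identifier, at 3.72, 4.43 and 3.41 TPM, and Snhg5-206, which holds none, at 4.0, 3.23 and 3.73 TPM. By counts Snhg5-206 led with 40.3 ± 3.04% of Snhg5, against 28.3 ± 4.76% for Snhg5-204. In Snhg15 the highest, Snhg15-202, holds no snoRNA and had 15.04, 10.5 and 11.1 TPM, and Snhg15-203, whose exon includes Snora9, had 12.5, 7.23 and 4.66 TPM.

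The share of TPM in transcripts that hold a hosted snoRNA inside an exon was computed as well, a measure added after seeing the data. It reached 93.6%, 100% and 95.1% in Snhg12, where 8 of 10 transcripts hold one although none is annotated as retained intron. The mean share was 77.6 ± 2.44% in Snhg8, 75.4 ± 5.82% in Snhg1, 72.6 ± 5.10% in Gas5, 45.6 ± 2.13% in Snhg5 and 34.8 ± 8.76% in Snhg15 (SD, n = 3 each). The highest Snhg12 transcript by mean TPM, Snhg12-204, holds 3 hosted identifiers and had 4.71, 3.98 and 3.03 TPM. Snhg12-208 had 5.80 and 2.93 TPM in replicates 1 and 2 and is listed at 0 in replicate 3 of the first transcript table, whereas the second transcript table gave it 3.80, 2.88 and 1.82 TPM. Snhg12-204 took a steady 31.9 ± 0.75% of the counts of Snhg12, but the leading transcript differed by library in the first transcript table. There Snhg12-208 was the highest in replicate 1, and Snhg12-210, with 0.63, 2.77 and 4.60 TPM, was the highest in replicate 3. In the second transcript table Snhg12-210 had 0.71, 1.31 and 2.49 TPM, below Snhg12-204 in every library. Snhg6 and Snhg3 have no annotated transcript of this kind, and for them unspliced RNA could not be measured in these tables. Their highest transcripts, Snhg6-205 and Snhg3-202, took 78.6 ± 5.96% and 69.9 ± 19.0% of the counts of their genes.

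**Figure D2:**
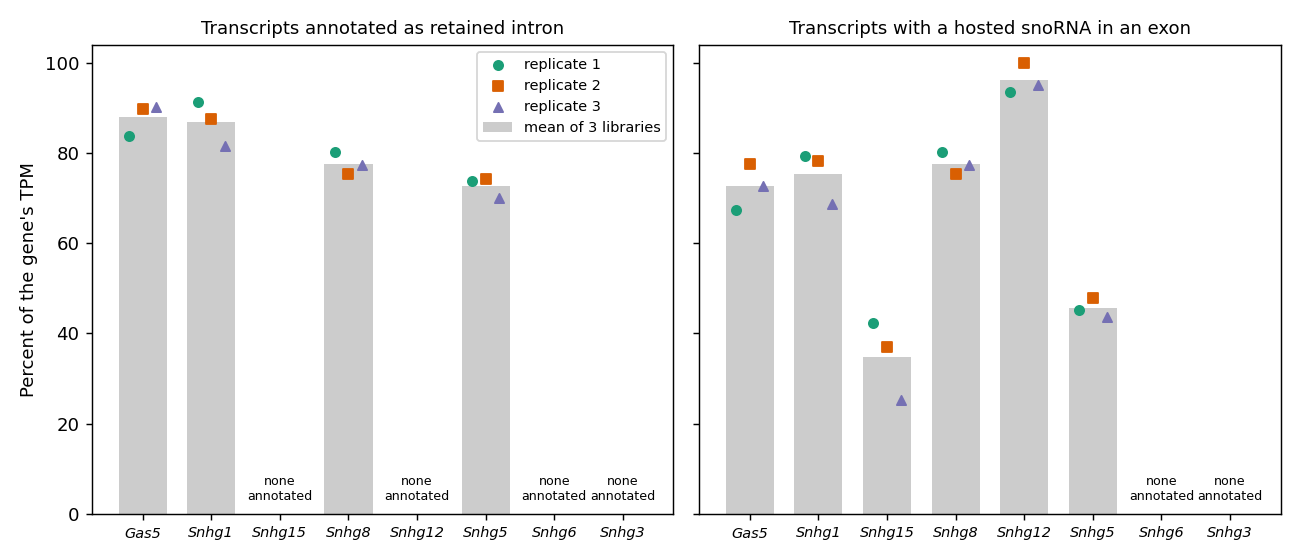
Percent of each host gene's TPM in transcripts annotated as retained intron (left) and in transcripts with a hosted snoRNA inside an exon (right), with bars for the mean of 3 libraries and points for the libraries. In the left panel the 4 genes with such transcripts lie between 70.1% and 91.2%, and in the right panel Snhg12 is the highest with a mean of 96.2%.

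The hosted small RNAs were very unevenly represented, and 3 of them held nearly all the reads. Snord22, known as U22 and shown in Xenopus to be needed for maturation of the small-subunit ribosomal RNA, had 821, 1799 and 2344 estimated counts in replicates 1, 2 and 3 of the gene table. Snora73a had 5625, 3604 and 2026 counts, and Snora73b had 3461, 3399 and 2285. Snord22 was lowest in replicate 1, while the Snora73 pair was lowest in replicate 3. The read-assignment SD that the authors give was at most 2.02 counts for the Snora73 pair in any library, although the pair is nearly identical in sequence.

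Of the 30 hosted identifiers, 21 had an effective length of 0 in every library of the gene table. Effective length is the number of positions at which a fragment of the library's sizes can start within a transcript, and all identifiers of 87 bases or fewer had none, while the shortest with a value above 0 was 126 bases. These 21 are listed at 0 in the gene table. They are 70.0% of the hosted identifiers, against 38.0% of all 1558 annotated snoRNA and scaRNA genes, and they include every hosted RNA of Gas5, Snhg5 and Snhg6. The listed 0 is therefore not a measurement of absence for these RNAs. The effective length of Snord22 was 1.43, 1.20 and 1.80 bases, and its TPM of 40560.5, 83804 and 75832, the highest mean TPM of all 55536 genes, depends on that small divisor. The Snora73 pair had effective lengths of 31.4, 23.9 and 28.4 bases and ranked 19th and 25th by mean TPM.

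The second transcript table, which assigns reads to short transcripts as well, gave 9 of the 21 a mean of 1 or more counts. In Gas5, Gm22357 had 41.3, 258 and 509 counts and Snord47 had 0, 101 and 153, whereas 6 of the remaining Gas5 identifiers had 0 in every library. In Snhg12, Snord99 had 0, 43.1 and 90.1 counts. In Snhg5, Snord50a had 0.88, 10.6 and 19.4 counts. In Snhg6, Snord87 had 10, 10 and 8 counts. Gm22357, Snord47, Snord99 and Snord50a were all lowest in replicate 1 and highest in replicate 3, and Snord87 was level between libraries. In Snhg1 the 7 identifiers other than Snord22 had at most 4.67 counts in any library, so Snord22 held nearly all the hosted counts of that locus. These 7 are also among the identifiers with an effective length of 0 in the gene table. In both tables Snora24 of Snhg8 had under 1 count in every library. Its effective length in the gene table was only 1.98, 1.64 and 2.41 bases, so the low count there is weak evidence of absence.

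**Figure D3:**
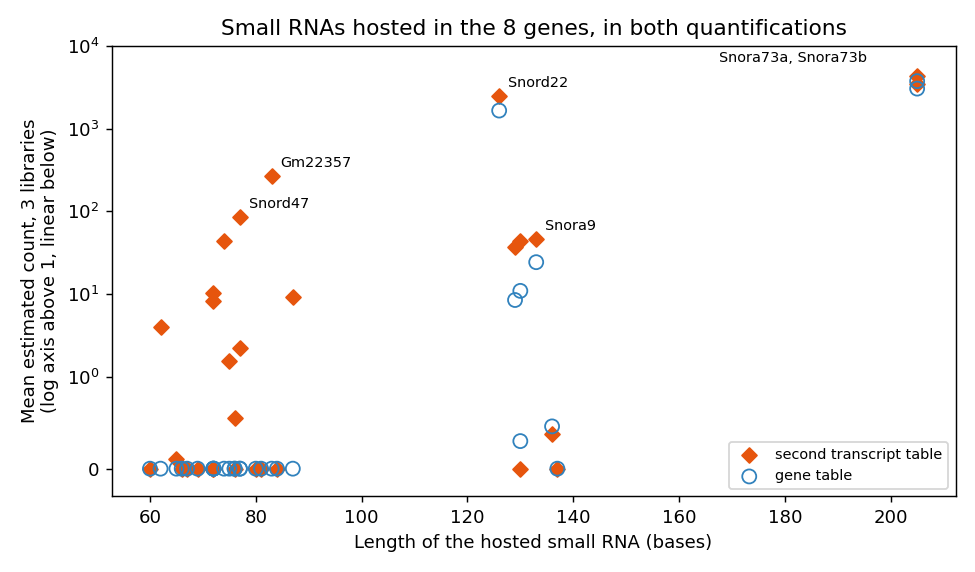
Mean estimated count over 3 libraries of each of the 30 hosted small RNAs (vertical axis, log above 1 and linear below) against its length in bases, in the second transcript table (diamonds) and the gene table (circles). Every circle at or under 87 bases lies at 0, while Snord22 and the Snora73 pair lie above 1000 in both tables.

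Set against the host's own counts, the hosted RNAs took a share that ranged from none to nearly everything. At the Snhg3 locus they held 99.8 ± 0.07% of the counts of host and hosted RNAs together, at Snhg1 52.9%, 67.6% and 79.2% in replicates 1, 2 and 3, at Snhg15 13.5 ± 5.78% and at Snhg12 7.76 ± 1.74% (gene table, SD, n = 3). The lowest host gene by TPM thus carried the most hosted counts. Over all 8 loci the share was 71.2 ± 3.68%, and without the Snhg3 locus, a choice made after seeing the data, it was 32.5%. At Gas5 the share was 2.21%, 11.8% and 23.8% in the second transcript table, against a listed 0 in the gene table. At Snhg12 the second transcript table gave 14.0%, 25.6% and 47.2%. Reads from an unspliced host intron and reads from a finished snoRNA cannot be told apart in these tables.

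Some hosted RNAs had the same order of libraries as their host, depending on the table used, and others did not. With 3 libraries a shared order can easily arise by chance, and likeness of pattern was not tested. The order of Snhg3 in the gene table rests on 28.4, 13.1 and 9.27 estimated counts. The values here are scaled CPM, counts corrected for library size with edgeR's TMM factors, and replicates have no order of their own. Snord22 had 44.3, 87.8 and 156 scaled CPM in replicates 1, 2 and 3 of the second transcript table, and 52.7, 105 and 172 in the gene table. Its host Snhg1 had 46.8, 50.6 and 45.1 scaled CPM in the gene table, so the snoRNA varied over libraries in which the host was nearly level. Gm22357 had 1.83, 8.42 and 20.95 scaled CPM in the second transcript table, against 106, 135 and 128 for its host Gas5 in the gene table. At Snhg3 and Snhg15 the order was shared between these tables. Within a single table it was not always shared. Snora73a had 271, 138 and 108 scaled CPM and Snora73b had 163, 128 and 117 in the second transcript table, and their host Snhg3 had 1.83, 0.77 and 0.68 in the gene table. Snora9 had 2.34, 1.45 and 1.77 in the second transcript table, and its host Snhg15 had 11.2, 7.99 and 8.98 in the gene table. Within the gene table Snora9 had 2.60, 1.33 and 0.71 scaled CPM, lowest in replicate 3, whereas Snhg15 was lowest in replicate 2. Within the gene table the Snora73 pair kept the order of Snhg3. In the second transcript table Snhg3 had 4.43, 3.06 and 3.73 TPM, lowest in replicate 2, whereas the Snora73 pair was lowest in replicate 3. That host value is in TPM and the pair's is in scaled CPM. Scaled CPM of the hosts in that table, Snhg15 included, is not given here.

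Of the 10 hosted RNAs with a mean of 10 or more counts in the second transcript table, 7 were higher in replicate 3 than in both other libraries, against 30.0% of all 25040 genes with that count. Among those highest in replicate 3, Snora61 had 1.33, 1.24 and 2.66 scaled CPM in replicates 1, 2 and 3. In the gene table it had 1.25, 0.51 and 0.34 and was lowest in replicate 3. Snord22 and Snora44 were highest in replicate 3 in both tables, and the rest had an effective length of 0 in the gene table. In replicate 1, 6 of the 10 were lower than in both other libraries, against 41.9% of all genes. The same split by length was seen over all snoRNA and scaRNA genes with that count, with a length limit chosen after seeing the data. Of the 254 under 150 bases, 51.6% were lowest in replicate 1 and 47.2% were highest in replicate 3, while of the 33 with 150 bases or more, 69.7% were highest in replicate 1, against 35.7% of all genes, and these 33 include Snora73a and Snora73b. The length minus the effective length of long transcripts, which follows fragment length, was 207, 190 and 187 bases in replicates 1, 2 and 3 of the second transcript table, against 206, 238 and 225 bases in the first. The part of fragment length and of starting amount in these differences was not tested.

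Among the host genes, 5 of 8 were highest in replicate 1 and 3 were not. Their median log2 ratio of a library to the mean of the other libraries was 0.24, -0.06 and -0.11 for replicates 1, 2 and 3, against -0.007, -0.005 and -0.012 for all 15871 genes. The 5 above both other libraries in replicate 1 compare with 36.6% of all genes, and in replicate 3, 5 of 8 were below both others, against 29.1%. Snhg3 had the largest ratio in replicate 1, 1.33, and without it, a choice made after seeing the data, the median there was 0.08. Against the mean of the other libraries, replicate 1 was lower for Gas5 (-0.30), Snhg5 (-0.09) and Snhg1 (-0.03). Only Gas5 was below both other libraries in replicate 1. With 1 library at each starting amount there is no test, and in bulk RNA fewer cells and less RNA per cell cannot be told apart.

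Steadiness differed widely among the hosts. Snhg12 had an SD of 0.07 over the log2 scaled CPM of the 3 libraries, and Snhg1 had 0.08, against a median of 0.21 over all genes. Gas5 had 0.18 and Snhg5 had 0.15, also under that median. Snhg15 had 0.25, Snhg8 had 0.29, Snhg6 had 0.30 and Snhg3 had 0.78, the last at the 96.0th percentile of all genes and with the fewest counts.

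**Figure D4:**
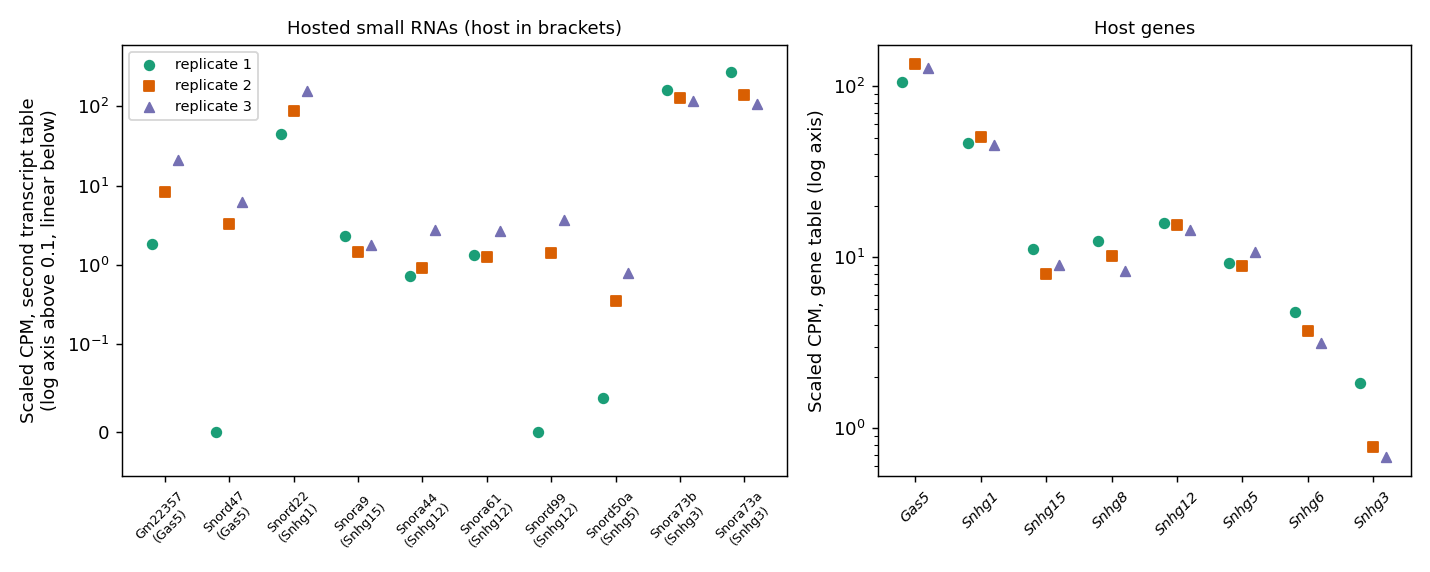
Scaled CPM in each library of the 10 hosted small RNAs with a mean of 10 or more counts in the second transcript table (left, log axis above 0.1 and linear below) and of the 8 host genes in the gene table (right, log axis). Snord22 lies at 44.3 in replicate 1 and 156 in replicate 3, while Snhg1 lies between 45.1 and 50.6.

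Some host gene levels differed between the quantifications. Gas5 had 90.1, 99.9 and 95.8 TPM in the second transcript table, against 132, 145 and 118 TPM in the gene table, lower in 3 of 3 libraries. In limma the difference on the log2(TPM + 1) scale, second transcript table minus gene table, was -0.46 for Gas5 (SE 0.10, adjusted p = 0.0123). Snhg12 had 14.2, 10.8 and 9.63 TPM in the second transcript table, against 19.3, 13.9 and 11.5 TPM in the gene table, a limma difference of -0.33 (SE 0.11, adjusted p = 0.0462). Estimated counts of both were higher in the second transcript table, so the lower TPM does not mean fewer counts. Gas5 had 1824, 2720 and 2160 counts there, against 1658, 2297 and 1747, and Snhg12 had 287, 321 and 249, against 247, 265 and 197.5. Counts summed over annotated genes were also higher there, at 23952474, 28155711 and 24946455. What made the TPM differ was not tested. Gas5 and Snhg12, 2 of 8 host genes, were called lower in TPM, against 2.19% of the 22752 genes tested. No host gene was called higher, against 60.1%. The remaining 6 ranged from -0.38 for Snhg1 to 0.34 for Snhg15, with limma adjusted p-values of 0.0508 to 0.563.

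The median difference over all genes tested, second transcript table minus gene table, was 0.44, 0.69 and 0.75 in replicates 1, 2 and 3. Relative to that median, 7 of the 8 host genes were lower in the second transcript table, with differences of -0.29 for Snhg15 to -1.09 for Gas5, against 35.8% of all genes called lower on that scale, and none was higher, against 36.1%. Snhg3 did not pass, at -0.47 (limma adjusted p = 0.0792). The direction for Snhg15, Snhg6 and Snhg3 thus turned with the scaling. Without replicate 2 no host gene was called, with a limma adjusted p of 0.203 for Gas5 and 0.391 for Snhg12. Snhg12 was also not called without replicate 1 (0.0673) or without replicate 3 (0.0955). Leaving out a library also added calls. In limma Snhg6 was higher at 0.40 (adjusted p = 0.0345) and Snhg15 higher at 0.46 (adjusted p = 0.0131) without replicate 1, and Snhg1 was lower at -0.49 (adjusted p = 0.0492) without replicate 3.

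**Figure D5:**
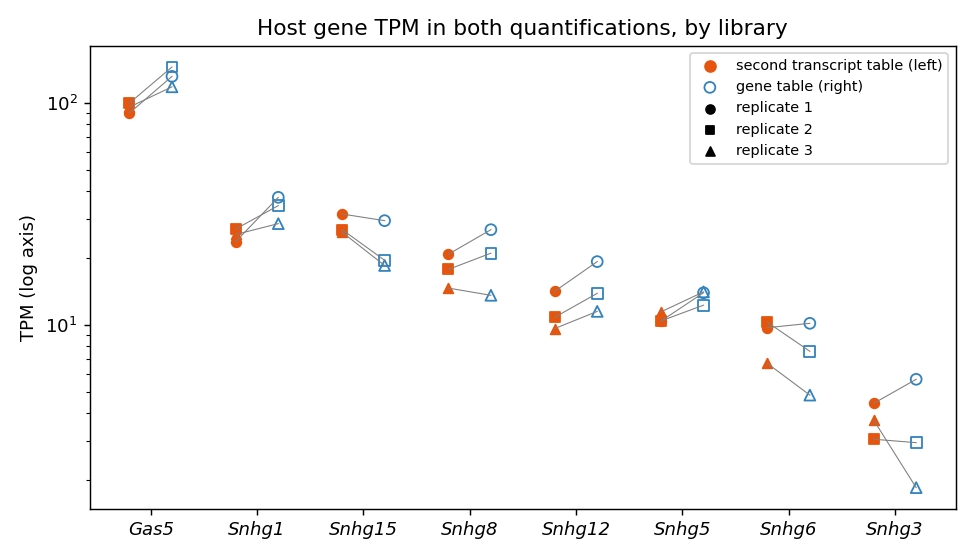
TPM of each host gene (log axis) in the second transcript table (filled, left of each pair) and the gene table (open, right), with lines joining the values of 1 library. Gas5 lies between 90.1 and 99.9 TPM on the left and between 118 and 145 TPM on the right, while Snhg15 lies higher on the left in all 3 libraries.

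Transcripts of the genes for proteins that build and act on these RNAs were also present in the chromatin fraction, given as TPM of the gene table. All 4 genes of the box C/D snoRNP core passed a TPM of 1 in every library, with a median of 16.4 ± 1.96 TPM. Nop56, a scaffold of that particle, was the highest with 45.8, 39.3 and 28.3 TPM. Fbl, its methyltransferase, had 17.5, 18.1 and 15.5 TPM, and Snu13, which binds the snoRNA first, was the lowest with 5.26, 5.52 and 3.44 TPM. Of the box H/ACA core 3 of 4 passed, with a median of 4.82 ± 0.75 TPM. Dkc1, the pseudouridine synthase, had 15.9, 16.5 and 13.2 TPM, and Gar1 had 4.53, 8.16 and 6.85 TPM. Nop10, the smallest core subunit, had 1.56, 0.84 and 0.07 TPM and did not pass.

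All 10 snoRNP assembly genes passed, with a median of 3.79 ± 0.82 TPM. The highest was Pih1d1, a subunit of the R2TP chaperone complex, with 14.5, 12.1 and 8.66 TPM, followed by Znhit6 with 7.18, 4.36 and 4.22 TPM. Naf1, which is needed for box H/ACA assembly, was the lowest with 1.80, 1.36 and 1.33 TPM. All 10 nonsense-mediated decay genes passed as well, with a median of 23.0 ± 3.43 TPM. Smg1, the kinase that phosphorylates Upf1, had 154, 136 and 118 TPM, Smg9 had 51.1, 31.9 and 34.4 TPM, and Smg8 was the lowest with 3.79, 2.46 and 2.22 TPM. Of the regulators of terminal oligopyrimidine mRNAs, 5 of 6 passed, with a median of 21.5 ± 4.74 TPM. Rptor, a subunit of the mTOR complex, had 60.9, 41.5 and 39.7 TPM, Larp4 had 28.1, 26.9 and 23.5 TPM, and Eif4ebp1 had 1.60, 1.53 and 0.69 TPM and did not pass. These levels are set beside those of the host genes as a description, with 24.4% of all genes passing the same threshold.

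The labelled cell type was checked against its markers. In the gene table all 10 macrophage markers passed a TPM of 1 in every library, Csf1r, Lyz2 and Ctsb among them, with a summed level of 1151 to 2120 TPM. Of 25 markers of T cells, B cells, neutrophils, erythroid cells and fibroblasts, only the erythroid gene Alas2 passed, at 7.94 ± 4.20 TPM, and the 25 summed to 4.02 to 12.7 TPM. Cd3e and Ly6g were listed at 0 in every library. In the second transcript table the T cell marker Cd3d averaged 11.4 ± 6.96 TPM, against 0.03 ± 0.03 TPM in the gene table, and Alas2 averaged 17.4 ± 5.15 TPM, Mpo 1.26 ± 0.41 TPM and Col1a1 1.16 ± 0.52 TPM (SD, n = 3 each). Estimated counts summed over annotated genes came to 15698066, 16005795 and 14386725 in replicates 1, 2 and 3. At this depth a gene at 0 could still have up to 3 counts, or 0.187 to 0.209 CPM, by counting error alone.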

How the data were processed

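For each library the authors deposited a gene table and a first transcript table, with estimated counts and TPM derived from transcriptome alignments, and a second transcript table with estimated counts and TPM derived from the reads, all on mm10 with GENCODE M21, per the deposited readme files. Programs, versions and strand settings, not given in the sources used here, stay unnamed. The gene table's read-assignment SD is a deposited value, per the file headers. The members, lists and tests were chosen with earlier results of these data known. Members were matched by symbol and all are named, with the highest 1 or 2 hosted RNAs and transcripts per member by mean and the 2 highest and the lowest gene per list; further hosted RNAs were named after their values were seen. Hosted RNAs are snoRNA or scaRNA genes wholly inside a member on its strand. limma 3.58.1 in R 4.3.3 was fitted with an intercept over all genes tested, with Benjamini-Hochberg adjustment at 0.05, on log2 ratios with a pseudocount of 0.1 (transcript classes) or 1 (tables), for genes with a mean TPM of 1 or more. Scaled CPM used edgeR 4.0.16 TMM factors, with DESeq2 1.42.0 size factors as an alternative, on counts rounded to whole numbers. Rows naming no annotated gene held 0.351% to 1.16% of counts and were left out. The scripts were tested on simulated data.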

Additional observations from a re-analysis of the deposited data

How the results depend on the processing

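Detection of all 8 host genes and the 4 higher retained intron calls held under every alternative run for them, except that at a TPM of 5 or more 6 of 8 host genes passed. The host gene median was 4.998 when genes under 200 bases were left out of the TPM and 3.50 as log2(CPM + 1), against 4.20. The hosted share of locus counts was 32.5% without the Snhg3 locus, and 69.1% to 72.2% when each replicate was left out. The number of host genes that differed between the quantifications was 7 with each library's median subtracted, and 0 to 3 when each replicate was left out. With that median subtracted, the differences of Snhg6, Snhg15 and Snhg3 turned to -0.38, -0.29 and -0.47. The Snhg3 difference ranged from -0.13 to 0.38 when each replicate was left out. The median library ratio of replicate 2 turned to 0.069 when scaled by total count alone. The cause was not tested. No paired analysis was possible because there is a single group, so no replicate numbers are shared between groups; both limma fits already compare values within a library. Depth limits Snhg3, which had few counts, and hosted RNAs with an effective length of 0 could not be measured in the gene table.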

Other observations

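Other genes listed as snoRNA hosts were present at a wide range of levels, given here as TPM of the gene table and without a test. Of 11 other genes listed as non-coding hosts, 7 passed a TPM of 1 in every library, with a median of 2.92 ± 0.49 TPM (SD, n = 3). Most were listed because their symbol starts with Snhg, and whether each hosts a snoRNA was not checked. Snhg11 is annotated as protein coding, and neither it nor Snhg7os passed. One of the 7, Snhg9, passed on only 4, 1 and 1 counts. Snhg20 was the highest with 43.3, 29.2 and 25.4 TPM in replicates 1, 2 and 3, and Zfas1, an antisense transcript that carries box C/D snoRNAs, followed with 38.8, 25.4 and 20.8 TPM. Snhg18 was the lowest and reached 0.05 TPM in 1 library, with 0 listed in the others.

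All 18 protein coding hosts passed, with a median of 40.7 ± 8.81 TPM. Eif4a2, a translation initiation factor gene, was the highest with 487, 409 and 308 TPM, and its paralog Eif4a1 had 348, 244 and 205 TPM. Both exceeded Gas5 in every library. Rcc1, the exchange factor of the GTPase Ran and the gene that overlaps Snhg3 on the same strand, was the lowest with 6.67, 6.49 and 6.13 TPM.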
